A study of Homo sapiens with 6 samples.

Results

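AMP-activated protein kinase (AMPK) is a heterotrimer of 1 catalytic alpha subunit, 1 scaffolding beta subunit and 1 nucleotide-binding gamma subunit. Its 7 subunit genes and the genes of 2 kinases that phosphorylate it were examined here in naive and primed human pluripotent stem cells. The 9 genes are PRKAA1 and PRKAA2 (alpha), PRKAB1 and PRKAB2 (beta), PRKAG1, PRKAG2 and PRKAG3 (gamma), STK11, which encodes LKB1, and CAMKK2. They were taken by name from a count table of 48183 gene names, and each of the 9 has 1 identifier. AMPK senses a falling energy charge: AMP bound to the gamma subunit favours phosphorylation of the alpha subunit, and the active kinase turns on catabolic pathways and turns off the synthesis of lipid, sterol and protein. LKB1 is the main kinase of that site under energy stress, and CAMKK2 phosphorylates the same site in response to calcium. AICAR, which enters cells and is phosphorylated to an AMP mimic, activates AMPK through the gamma subunit, and was 1 of the inducers of the naive state in the study.

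The 6 bulk RNA-seq libraries comprised 4 of naive and 2 of primed cells. The cells are human embryonic stem cells with an EOS-GFP reporter, called H1 in the sample labels and H9 in the text of the study. The second parental line, CA-p38 EOS, is the same reporter line with a doxycycline-inducible, constitutively active p38 transgene carried by piggyBac and sorted by mCherry. Naive cells had been induced from EOS cells with AICAR (libraries AICAR 1 and AICAR 2) or with VPA, a histone deacetylase inhibitor (VPA), or from CA-p38 EOS cells with doxycycline (CA-p38). AICAR and doxycycline were given in PXGL medium (PD0325901, XAV939, Go6983 and LIF), and VPA in Ndiff227 medium with PD0325901 and LIF. All 4 naive cultures were then expanded in PXGL without the inducer, and the CD75+ SUSD2+ cells were sorted for RNA. The labels describe naive culture on mouse feeder cells, while the text of the study also describes a feeder-free step for CA-p38 cells, so the substrate of each sequenced culture is not certain. The primed EOS and primed CA-p38 libraries came from the unsorted parental lines, kept in StemFit AK02N medium on Matrigel. The AICAR libraries are different passages of AICAR-induced cells, and every other condition is 1 library, so the spread between libraries may be partly technical. Medium and sorting, and feeder cells where used, changed together with the cell state and cannot be told apart from it. In bulk RNA, fewer cells that express a gene and less RNA per cell cannot be told apart either.

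Total counts ran from 46823699 to 54277064 per library, so that 3 counts, the floor used here, equal 0.0553 to 0.0641 CPM, a count set in proportion to its library's size, before TMM scaling; this covers counting error only. All 6 naive markers tested (KLF17, DPPA5, DPPA3, KLF4, TFCP2L1 and SUSD2) were higher in naive libraries, with sums of 1852 to 2154 CPM against 7.66 and 9.87 in primed libraries. All 6 primed markers (SFRP2, DUSP6, ZIC2, THY1, CD24 and TNIK) were lower, with sums of 30.9 to 42.6 CPM against 2525 and 3110. In every library the markers of the labelled state were the higher ones. SUSD2 was also a sorting marker of the naive cells, and the lists were chosen with earlier results of these data known.

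Paralogous subunits are alike in sequence, which matters for counting, so the longest stretch that a pair shares is shown for the alpha and for the beta genes, 5′ to 3′ and in full, from the GENCODE release 44 transcripts (GRCh38).
PRKAA1 from coding position 103 and PRKAA2 from coding position 70: gtcggcaccttcggcaaagtgaag
PRKAB1 from coding position 373 and PRKAB2 from coding position 373: tacaagttctttgtggatgg
These runs are 24 and 20 bases long, and the 3 pairs of gamma genes share runs of 12 to 17 bases. No window of 50 bases of any of the 9 genes other than PRKAG1 occurred in another gene. For PRKAG1, 97.3% of windows also occur in an annotated readthrough transcript, ENSG00000288710, which overlaps it on the same strand and was not analysed here.

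**Figure D1:**
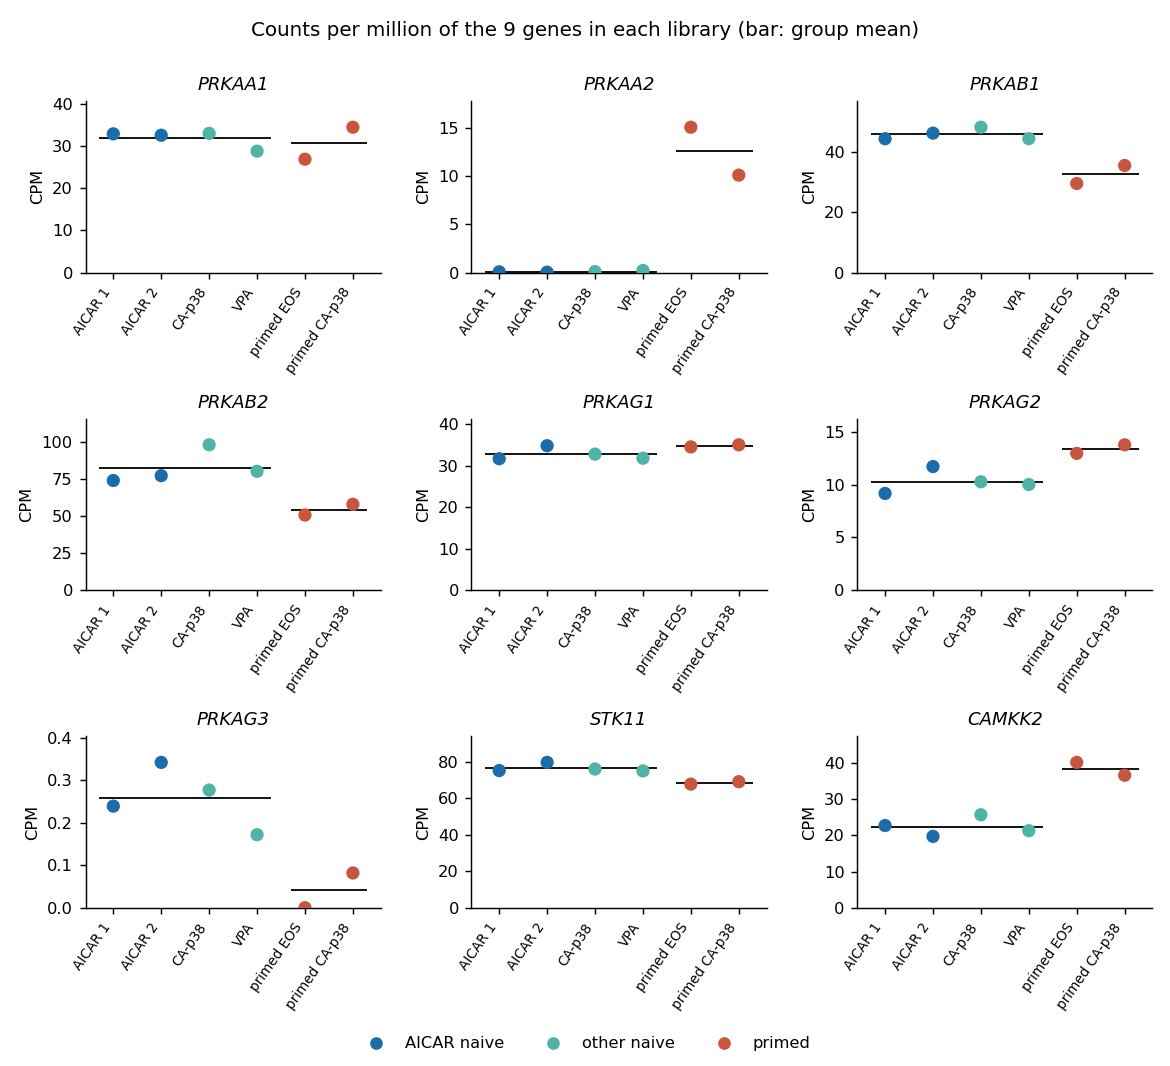
TMM-scaled CPM (y axis, each panel from 0) of the 9 genes in the 6 libraries (x axis), with 1 point per library coloured by AICAR naive, other naive or primed, and a bar at the mean of the 4 naive and of the 2 primed libraries. PRKAA2 falls from 15.1 and 10.1 CPM in the primed libraries to between 0.0402 and 0.210 CPM in the naive libraries, while PRKAA1 and PRKAG1 overlap between the states.

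The 9 genes divided into 2 that were higher in naive cells, 2 that were lower and 5 that did not pass the test. PRKAB1 and PRKAB2, the beta subunits, rose by less than 0.61 on the log2 scale, CAMKK2 fell by 0.78, and PRKAA2, the alpha2 catalytic subunit, fell 116-fold. In all, 4 of 9 genes passed an adjusted p of 0.05 (edgeR quasi-likelihood test), against 53.1% of the 26497 genes tested. Of those 4, the 2 higher genes compare with 26% of all genes and the 2 lower genes with 27%. Naive and primed libraries did not overlap for 7 of the 9 genes, against 64.9% of all genes. The counts for the 9 genes are therefore near those of the whole table, and it is the size of the PRKAA2 difference that stands out among them. The median log2 difference of the 9 genes was 0.05, against 0.11 over all genes tested.

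**Figure D2:**
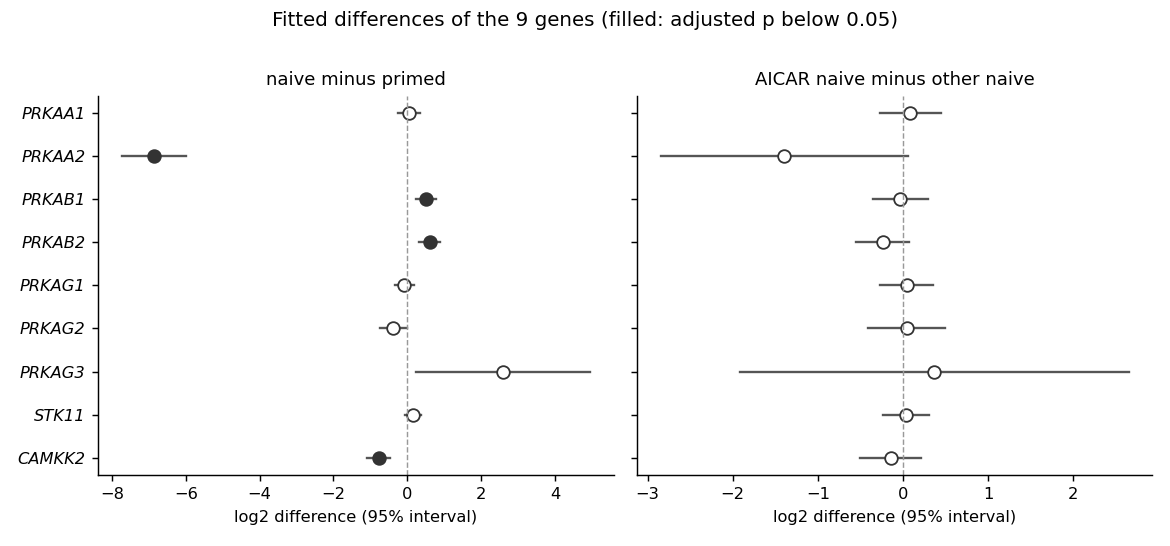
Fitted log2 differences (x axis, points) with 95% intervals (lines) of the 9 genes, naive minus primed on the left and AICAR naive minus other naive on the right, on x axes of different range; filled points have an adjusted p below 0.05. On the left PRKAA2 (-6.86), CAMKK2 (-0.78), PRKAB1 (0.49) and PRKAB2 (0.60) are filled, and on the right no point is.

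PRKAA2 (ENSG00000162409, chr1:56645314-56715335, plus strand, GRCh38) encodes alpha2, the catalytic subunit known for its high level in skeletal muscle and heart. Its counts were 4 and 2 (AICAR 1 and 2), 5 (CA-p38) and 11 (VPA) in the naive libraries, against 749 (primed EOS) and 496 (primed CA-p38). As CPM these are 0.0736, 0.0402, 0.0989 and 0.210 in the naive libraries and 15.1 and 10.1 in the primed libraries. The transcript rested on 11 counts or fewer in each naive library and was well above the floor in both primed libraries. The naive mean was 0.106 ± 0.0736 CPM (SD, n = 4) and the primed mean 12.6 ± 3.53 CPM (SD, n = 2), a log2 difference of -6.86 with a standard error of 0.40 and an adjusted p of 1.67e-08. PRKAA2 passed the filter on low counts only through the primed libraries, in which it was high: 1 of the 4 naive libraries reached the minimum of 0.1995 CPM, which 2 libraries had to reach. Over the alternative settings in which it was tested it lay between -7.44 and -6.56. Against its own parental primed library, PRKAA2 was 206-fold lower in AICAR 1 (95% interval 80.0 to 756, counting error only) and 376-fold lower in AICAR 2 (104 to 3109). It was 72.0-fold lower in VPA (40.01 to 145) and 103-fold lower in CA-p38 (43.6 to 317). The primed lines differed by 1.49-fold, with primed EOS higher (1.33 to 1.67).

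Markers of skeletal muscle and of neural cells were measured beside it; heart markers were not. The summed level of 6 skeletal muscle markers was 7.39 to 9.10 CPM in naive libraries and 27.2 to 39.8 CPM in primed libraries, with MYOD1, the defining transcription factor, at 0 counts in every library. Of these markers 5 were tested, of which 2 were called higher and 1 lower in naive cells. Looked at after their values were seen, the muscle actin ACTA1 was the lower one (3.26 against 31.2 CPM) and made up most of the sum in primed cells. CKM and TNNT3 were the higher ones. MYH3 (3.49 against 1.88 CPM) and MYOG (0.172 against 0.143 CPM) also had higher means in naive cells but were not called. TNNT3 had 32, 4, 29 and 1 counts in AICAR 1, AICAR 2, CA-p38 and VPA, and 0 and 1 in the primed libraries, so that the states overlapped. The 6 neural markers summed to 2.41 to 3.60 CPM in naive and 14.7 to 15.4 CPM in primed libraries. Among 5 tested, MAP2 (0.0435 against 5.98 CPM) and DCX (0.299 against 7.29 CPM) were called lower. The other markers had higher means in naive cells: PAX6 (0.756 against 0.700), SOX1 (1.14 against 0.886), NEUROD1 (0.413 against 0.192) and NEUROG2 (0.151 against 0.0102, not tested). Both sums were higher in primed libraries, as PRKAA2 was. Of the single markers only ACTA1, MAP2 and DCX had higher means there. The part of these markers in the PRKAA2 difference was not tested.

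PRKAA1 (ENSG00000132356, chr5:40759389-40798374, minus strand) encodes alpha1, the catalytic subunit of most cell types. It stood at 33.0 and 32.6 CPM in the AICAR libraries, at 33.1 CPM (CA-p38) and 28.9 CPM (VPA) in the other naive libraries, and at 26.9 CPM (primed EOS) and 34.5 CPM (primed CA-p38). The primed values lay on either side of the naive ones, and the means of 31.9 ± 2.03 (SD, n = 4) and 30.7 ± 5.38 CPM (SD, n = 2) differed by less than the spread between the primed libraries. The log2 difference was 0.05 (95% interval -0.25 to 0.36) and did not pass the test; without primed EOS it turned to -0.13. A change of PRKAA1 was not detectable where PRKAA2 fell. Per kilobase of transcript, the summed level of the alpha genes was 6.08 ± 0.379 CPM per kb in the 4 naive libraries (SD) and 7.20 ± 0.647 CPM per kb in the 2 primed libraries (SD).

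Levels per kilobase give the share of each paralog in its class. PRKAA2 made up 0.125% and 0.0692% of the alpha transcripts in the AICAR libraries, 0.168% (CA-p38) and 0.407% (VPA) in the other naive libraries, and 23.97% (primed EOS) and 14.2% (primed CA-p38) in the parental lines. Alpha2 was thus a minor part of the alpha transcripts in primed cells and a trace in naive cells. An exact two-sided permutation test of the alpha share gave p = 0.0667, the smallest value that 4 against 2 libraries allow, so that no share could pass 0.05 by this test. The primed share depends on the length used, and was 29.6% ± 9.43 (SD, n = 2) with coding length in place of transcript length. PRKAA2 has 1 annotated transcript and PRKAA1 has 9, and the effect of isoform number on the reads counted was not tested.

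**Figure D3:**
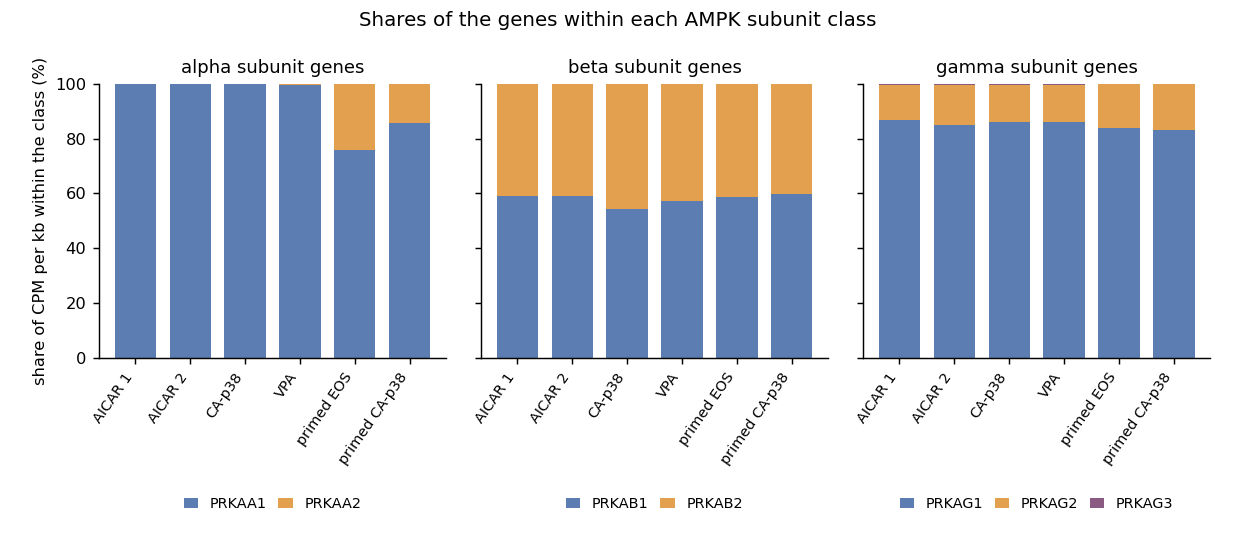
Share (y axis, percent of summed CPM per kb within the class) of each gene among the alpha, beta and gamma subunit genes in each of the 6 libraries (x axis), as stacked bars. PRKAA2 takes 23.97% and 14.2% of the alpha class in the primed libraries and at most 0.407% in the naive libraries, whereas PRKAB2 lies between 40.3% and 45.7% of the beta class in all libraries by transcript length (61.7% to 66.8% by coding length).

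PRKAB1 (ENSG00000111725, chr12:119667864-119681624, plus strand) and PRKAB2 (ENSG00000131791, chr1:147155106-147172550, minus strand) encode beta1 and beta2, the scaffolds that hold alpha and gamma together and bind glycogen. PRKAB1 was at 44.5 and 46.4 CPM in the AICAR libraries, 48.3 CPM (CA-p38) and 44.5 CPM (VPA) in the others, and 29.6 CPM (primed EOS) and 35.6 CPM (primed CA-p38) in primed cells. PRKAB2 was at 73.8, 77.0, 97.8 and 80.0 CPM in the same naive order, against 50.5 and 57.8. Every naive library lay above both primed libraries for both genes. PRKAB1 rose by a log2 of 0.49 ± 0.13 (SE; adjusted p = 0.00496) and PRKAB2 by 0.60 ± 0.13 (SE; adjusted p = 0.00215). The PRKAB1 call rests on primed EOS: without that library the log2 difference was 0.35, with an adjusted p of 0.0889. Since both genes rose, the share of PRKAB2 in the beta class was 40.9% ± 0.862 (SD, n = 2) in primed and 42.5% ± 2.30 (SD, n = 4) in naive cells, a difference below the SD of the naive libraries (exact permutation p = 0.533). Which beta gene leads depends on the length: with coding length PRKAB2 had 62.3% in primed and 63.8% in naive cells, and with no length 62.5% and 64.0%. Summed, the beta genes gave 36.1 ± 2.75 CPM per kb (SD) over the 4 naive libraries and 24.8 ± 2.86 CPM per kb (SD) over the 2 primed libraries.

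PRKAG1 (ENSG00000181929, chr12:49002274-49018807, minus strand), the widely expressed gamma subunit, overlapped between the states. It was at 31.7 and 34.9 CPM in the AICAR libraries, 32.8 CPM (CA-p38) and 31.8 CPM (VPA) in the others, and 34.6 and 35.1 CPM in the primed libraries. The log2 difference of -0.09 (95% interval -0.34 to 0.17) did not pass the test, and became 0.01 when libraries were scaled by their totals. Reads of the readthrough transcript named above cannot be told apart from those of PRKAG1. DDN-AS1, on the other strand, overlaps 12.3% of the bases of its exons, with 11 to 78 counts per library, and whether counting used strand is not stated.

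PRKAG2 (ENSG00000106617, chr7:151556124-151877214, minus strand), the gamma subunit known for its mutations in a heart disease with glycogen storage, was at 9.18 and 11.7 CPM in the AICAR libraries and at 10.3 CPM (CA-p38) and 10.02 CPM (VPA) in the others. The primed EOS and CA-p38 libraries had 13.0 and 13.8 CPM, above all naive libraries. The log2 difference was -0.38 ± 0.17 (SE), with an adjusted p of 0.083 in edgeR and 0.03995 in DESeq2 (log2 -0.43). Its share of the gamma class was 13.6% ± 0.717 (SD, n = 4) in naive and 16.3% ± 0.429 (SD, n = 2) in primed cells (exact permutation p = 0.0667).

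PRKAG3 (ENSG00000115592, chr2:218822308-218832086, minus strand), the gamma subunit of skeletal muscle, was barely detected. Its counts were 13 and 17 in the AICAR libraries, 14 (CA-p38) and 9 (VPA) in the others, and 0 (primed EOS) and 4 (primed CA-p38) in primed cells; the count of 0 allows a level of up to 0.0591 CPM before scaling. It entered the test only through the naive libraries, in which it was higher, and its adjusted p was 0.0623; without primed CA-p38 it was 0.0321. At 0.258 ± 0.0712 CPM (SD, n = 4) in naive cells it was the rarest of the gamma transcripts, with 0.465% of the class per length. The summed muscle markers given above were lower in naive libraries, although ACTA1 was the only single marker with a lower mean. Of the 5 tested, 2 were called higher, of which TNNT3 overlapped between the states. The part of the muscle markers in the PRKAG3 values was not tested.

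STK11 (ENSG00000118046, chr19:1177558-1228431, plus strand), the gene of LKB1, was at 75.3 and 79.7 CPM in the AICAR libraries, 76.1 CPM (CA-p38) and 75.1 CPM (VPA) in the others, and 67.8 CPM (primed EOS) and 69.1 CPM (primed CA-p38) in primed cells. All naive libraries were higher, by a log2 of 0.16 ± 0.10 (SE), and the adjusted p of 0.204 missed the threshold; scaling by library totals gave 0.26 and an adjusted p of 0.0459. The median log2 difference of the 1353 chromosome 19 genes with at least 1 CPM was 0.40, above that of STK11.

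CAMKK2 (ENSG00000110931, chr12:121237675-121298308, minus strand), the calcium-dependent kinase, went the other way. It was at 22.7 and 19.7 CPM in the AICAR libraries, 25.7 CPM (CA-p38) and 21.3 CPM (VPA) in the others, and 40.2 CPM (primed EOS) and 36.6 CPM (primed CA-p38) in primed cells. The highest naive library was below the lower primed library, and the log2 difference was -0.78 ± 0.14 (SE; adjusted p = 0.000379), a 1.72-fold lower level. It kept its call in all alternative settings, with log2 differences of -0.87 to -0.68. Of the 2 upstream kinases, then, CAMKK2 fell and STK11 was not called.

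Compared per kilobase of the canonical transcript, STK11 was the highest of the 9 transcripts in naive cells, at 23.2 ± 0.661 CPM per kb (SD, n = 4). It was followed by PRKAB1 (20.7), PRKAG1 (19.8), PRKAB2 (15.4), PRKAA1 (6.07), CAMKK2 (4.56) and PRKAG2 (3.14), then by PRKAG3 (0.108) and PRKAA2 (0.0113). Among neighbours in this order only PRKAB1 and PRKAG1 overlapped between libraries. In primed cells PRKAG1 (21.0 CPM per kb) and STK11 (20.8) led and overlapped, and PRKAA2 (1.35) was above PRKAG3 (0.0171). The alpha subunit was the rarest class in both states, with 6.08 CPM per kb in naive cells against 36.1 for beta and 23.0 for gamma. The order depends on the length: per kilobase of coding sequence, an alternative added after seeing the data, PRKAB2 led in naive cells (101 CPM per kb), ahead of STK11 (58.9), and in primed cells (66.4 and 52.7). The levels assume the canonical transcript of each gene, and a gene with many isoforms, such as PRKAG2 with 35, may lose more reads to the mapping quality filter. The shares within a subunit class carry the same limit, for the beta class with 3 annotated transcripts of PRKAB2 and 10 of PRKAB1.

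The AICAR libraries were set against the other naive libraries (CA-p38 and VPA) to ask whether cells induced through AMPK kept a different set of AMPK transcripts after the drug was withdrawn. Over all genes the AICAR libraries did not form a closer pair than either did with CA-p38. The chi-square per gene was 21.1 between AICAR 1 and AICAR 2. For AICAR 1 and AICAR 2 it was 20.8 and 19.8 with CA-p38, and 22.2 and 35.9 with VPA. None of the 9 genes passed the test, and 0% of the 26497 genes did in edgeR, with 1307 at an unadjusted p under 0.05; DESeq2 called 68 genes and limma-voom 9. PRKAA2 was lower in both AICAR libraries than in the other two, by a log2 of -1.39, but on 2 to 11 counts and with a 95% interval of -2.84 to 0.06. PRKAB2 was likewise lower in both, by -0.24 (-0.55 to 0.07). For the other 7 genes the AICAR libraries overlapped the other naive libraries. The intervals of PRKAA1 (-0.28 to 0.44), PRKAB1 (-0.35 to 0.29), PRKAG1 (-0.27 to 0.35), STK11 (-0.23 to 0.30), CAMKK2 (-0.51 to 0.21) and PRKAG2 (-0.42 to 0.50) leave room for differences of up to about 0.5 on the log2 scale. That of PRKAG3 spans -1.92 to 2.65.

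Each naive library was also set against the primed library of its own parental line, without a test; AICAR 1, AICAR 2 and VPA share primed EOS as their reference. For 7 of the 9 genes all 4 libraries moved in 1 direction, but the share of all genes that did so was not computed. The count is therefore not a result about these genes. PRKAG3, 1 of the 7, rested on 0 to 17 counts. PRKAB1 was higher by 0.44 to 0.64 on the log2 scale with a prior of 0.5 CPM, PRKAB2 by 0.54 to 0.75, and STK11 by 0.14 to 0.23. CAMKK2 was lower in each, by -1.01 to -0.50, and PRKAG2 by -0.48 to -0.14. For PRKAG2 the ratio of AICAR 2 to primed EOS was 0.904, with a 95% interval of 0.806 to 1.012 (counting error only). The smallest CAMKK2 difference was in CA-p38. PRKAA1 (-0.06 to 0.29) and PRKAG1 (-0.12 to 0.01) had no common direction.

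**Figure D4:**
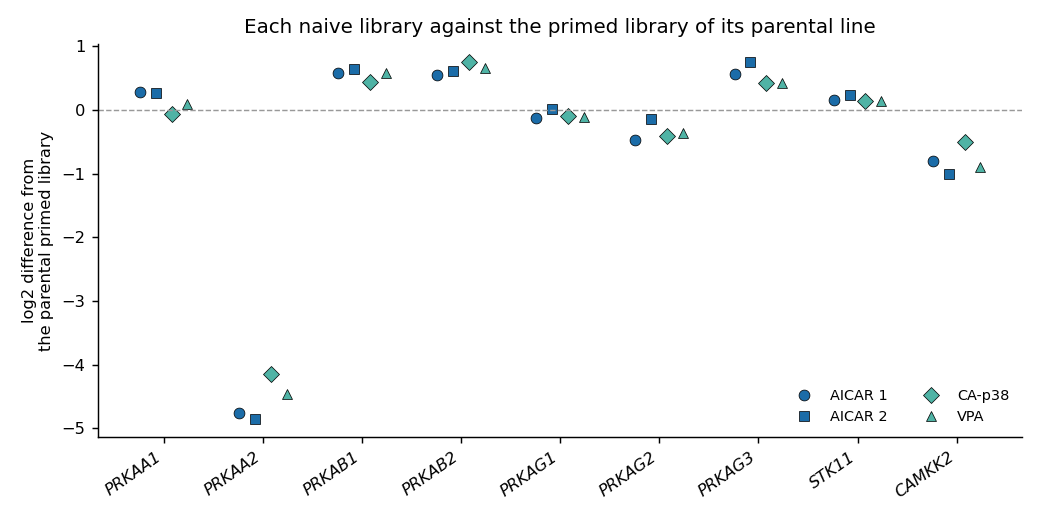
Log2 difference (y axis, prior of 0.5 CPM) of each naive library from the primed library of its parental line for the 9 genes (x axis), with 1 marker per library. All 4 markers of PRKAA2 lie between -4.85 and -4.15, those of CAMKK2 lie between -1.01 and -0.50, and those of PRKAA1 and PRKAG1 lie on both sides of 0. The prior exceeds every naive value of PRKAA2 (at most 0.210 CPM) and every value of PRKAG3, and shrinks their differences. Without it PRKAA2 was 72.0-fold (VPA) to 376-fold (AICAR 2) lower.

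The partners and regulators of these kinases changed in both directions. Of 22 genes in that list 20 were tested and 13 called, 6 higher and 7 lower, with a median log2 difference of -0.21. Over all genes tested 53.1% were called, 26% higher and 27% lower, with a median of 0.11. LKB1 works in a complex with a STRAD pseudokinase and a scaffold of the CAB39 family. Of these 4 partner genes 3 were called lower, which are too few genes to set against the 27% of all genes. STRADA fell by 0.97, from 31.5 to 16.1 CPM, STRADB by 0.59 and CAB39L by 0.86, from 3.68 to 2.03 CPM. CAB39, the more abundant scaffold at 71.0 CPM in naive and 67.1 CPM in primed cells, did not pass the test (log2 0.08). MAP3K7, the kinase TAK1, which can also act on AMPK, fell by 0.79, and its activator TAB1 by 0.45. CAMKK1, the paralog of CAMKK2, rose by 1.05, from 7.70 to 15.9 CPM, in the opposite direction to CAMKK2. The stress-induced sestrins SESN2 and SESN1, which are activators of AMPK, rose by 2.57 and 1.74 (78.0 against 13.1 CPM, and 71.6 against 21.4 CPM). FLCN, folliculin, rose by 0.79, and USP10, a deubiquitinase of AMPK, fell by 0.62.

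LKB1 also activates 12 kinases related to AMPK, the SIK, MARK, NUAK, BRSK and SNRK kinases. Of the 12, 10 were called, 2 higher and 8 lower, with a median log2 difference of -1.18, beside 53.1% called, 26% higher and 27% lower over all genes. The brain kinases BRSK1 and BRSK2 fell by 3.25 and 1.79, NUAK1 by 1.56 and SIK3 by 1.53. SIK1, a salt-inducible kinase, rose by 1.94, from 6.07 to 23.4 CPM, and MARK3, a microtubule affinity regulating kinase, rose by 0.38.

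Of 28 substrates of AMPK 22 were called, 11 in each direction, with a median log2 difference of 0.12, against a median of 0.11 over all genes, of which 53.1% were called. ACACA, the acetyl-CoA carboxylase of fatty acid synthesis, fell by 0.82, while ACACB, the isoform that controls fatty acid oxidation, did not pass the test (18.6 and 19.3 CPM). PFKFB3, an activator of glycolysis, fell by 1.98, and TXNIP, which lowers glucose uptake, fell by 1.62. TBC1D4, a regulator of glucose transporter traffic, fell most, by 4.56, from 47.3 to 2.003 CPM. ULK1, the kinase that starts autophagy, rose by 1.39, from 67.1 to 176 CPM, SREBF1, a transcription factor of lipid synthesis, by 1.19, and PPARGC1A, a coactivator of mitochondrial biogenesis, by 0.92. TFEB, a lysosomal transcription factor, rose by 3.11, and its relative TFE3 fell by 1.45, from 136 to 49.7 CPM.

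Among transporters and enzymes that handle AICAR and purine nucleotides, 15 of 20 genes were tested and 11 called, 3 higher and 8 lower, with a median log2 difference of -0.46. Over all genes tested 53.1% were called, 26% higher and 27% lower. ADK, the adenosine kinase that turns AICAR into its active form, fell by 0.67 (14.4 against 22.9 CPM), and ATIC, which consumes that form in purine synthesis, fell by 0.43 (152 against 205 CPM). ADSL, of the same pathway, fell by 1.148, AMPD2, an AMP deaminase, by 1.34, and the adenylate kinases AK1 and AK4 by 1.03 and 0.99. The nucleoside transporters SLC28A2 and SLC29A2 rose by 1.39 and 0.67, and ADA, adenosine deaminase, by 0.57. Between the AICAR and the other naive libraries edgeR called 0 of all 26497 genes tested. That it called none in these 4 lists is therefore not a result about them.

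**Figure D5:**
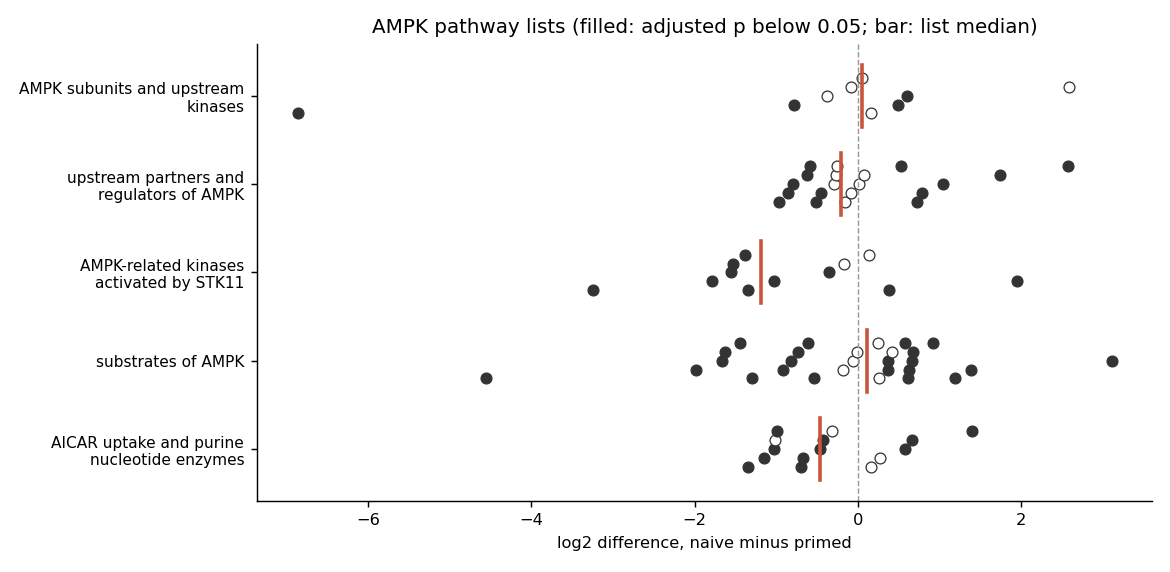
Log2 difference, naive minus primed (x axis), of each gene tested in the 5 lists (y axis; points are spread vertically for legibility only), filled where the adjusted p is below 0.05, with a bar at the list median. The medians run from -1.18 in the kinases activated by STK11 to 0.12 in the substrates of AMPK, and PRKAA2 at -6.86 is the lowest point of all 5 lists.

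Markers of other cell types were measured in the same libraries. The 8 fibroblast markers summed to 124 to 163 CPM in naive and 382 to 398 CPM in primed libraries, and 4 of them were called lower. COL3A1 (8.09 against 3.47 CPM), DCN (0.987 against 0.538) and LUM (0.370 against 0.0810) had higher means in naive cells but were not called. The 6 trophectoderm markers summed to 14.1 to 16.5 CPM against 3.82 to 5.38, with 3 of 5 tested called higher. The 6 hypoblast and endoderm markers summed to 12.9 to 18.7 CPM against 9.41 to 33.2. Of these 6, 1 was called higher, GATA4 (10.7 against 0.470 CPM), and 4 lower, among them FOXA2 (0.759 against 13.4) and SOX17 (0.281 against 3.21). Over all genes tested 53.1% were called, 26% higher and 27% lower. The part of these markers in the differences of the 9 genes was not tested.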

How the data were processed

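Polyadenylated RNA of 6 libraries (4 naive, 2 primed) was sequenced after SMART-Seq Stranded library preparation. The authors trimmed reads with Trim Galore 0.4.4 and cutadapt 1.15, mapped them with Bowtie2 to Ensembl GRCh38 cDNA and noncoding RNA, and deposited counts per gene identifier as whole numbers, without normalization. The 23 columns of other studies and the 26 spike-in rows were not used. Counts were summed by gene name, here for 48183 names. Positions and transcript lengths came from GENCODE release 44 (GRCh38). Naive and primed libraries were compared in edgeR 4.0.16 (R 4.3.3; TMM scaling, filterByExpr by state, quasi-likelihood test), p-values being adjusted by Benjamini-Hochberg over the 26497 genes tested, at a threshold of 0.05. AICAR and other naive libraries were compared in a fit of 3 groups. CPM values are TMM-scaled. The tests were run on simulated counts first. Alternatives used DESeq2 1.42.0 and limma 3.58.1, other scalings and filters, identifiers kept apart, the AICAR libraries summed, the parental line as a block, and each library left out. The named genes are the 9 members and, from 4 pathway lists, up to 4 called genes per direction with at least 1 CPM and 13 genes of fixed interest. One gene that this rule names is not reported here. Members and lists were chosen with earlier results of these data known.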

Additional observations from a re-analysis of the deposited data

Results flagged for a closer look

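Dixon's test over the 4 naive libraries was made for 49 values, the named genes and the subunit shares, and chance flags about 1 in 20 groups. It flagged 2 values, both of the VPA library. PRKAA1 was at 28.9 CPM in VPA, with the other naive libraries between 32.6 and 33.1 CPM. CAB39L was at 1.32 CPM in VPA, with the others between 2.22 and 2.37 CPM.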

How the results depend on the processing

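Of 133 alternative values of the 9 genes between naive and primed cells, 127 kept direction and side of the threshold. PRKAB1 lost its call without primed EOS, PRKAG2 gained one with the DESeq2 test, STK11 with library totals and PRKAG3 without primed CA-p38. PRKAG1 turned to 0.014 with library totals, and PRKAA1 ran from -0.13 to 0.25 with 1 library left out. PRKAA2 and PRKAG3 were not tested where 10 counts were asked of every library. The parental line as a replicate block left 4 of the 9 genes called and changed no call of theirs (13420 genes called in all). Between AICAR and other naive libraries the count of genes called was 68 with DESeq2, 9 with limma-voom, 152 with no filter and 0 to 2 with 1 library left out, where a lone sample is assumed to vary like the other groups. There the small differences changed sign: PRKAA1 ran from -0.019 to 0.18, PRKAB1 from -0.096 to 0.029, PRKAG1 from -0.028 to 0.11, PRKAG2 from -0.15 to 0.21 and STK11 from -0.0064 to 0.080. The share of PRKAA2, naive minus primed, was -18.9 percentage points, -29.2 with coding length, -29.0 with no length and -23.8 to -14.0 with 1 library left out, while that of PRKAG2 was -4.02 with no length. The causes were not tested. Depth limits PRKAA2 in naive cells and PRKAG3 in all cells, which rest on 0 to 17 counts.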
